A study of Rattus norvegicus with 6 samples.

Results

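The genes described here are rapidly induced transcription factors and regulators of the immediate early and stress response, followed in pancreatic duct glands of rats. A list of 10 genes was taken by symbol, and 9 of them (Fos, Jun, Junb, Egr1, Atf3, Nr4a1, Ier2, Ier3 and Dusp1) are measured among the 15677 distinct gene symbols of the tables; Fosb was not analysed here. The list was drawn up knowing that Fos, Atf3 and Nr4a1 are lower in HIP, so the differences between the groups are given for its members as a description, without a test. The 3 HIP libraries (HIP30, HIP2 and HIP3) come from transgenic Sprague-Dawley rats expressing HIAPP, the human islet amyloid polypeptide, described by the submitters as pre-diabetic. The 3 WT libraries (WT26, WT1 and WT4) come from wild-type Sprague-Dawley rats. In the HIP line the transgene is driven in beta cells by an insulin promoter, so the glands themselves are not the cells in which it is meant to act. Glands, which are mucin-producing outpouchings of the larger pancreatic ducts, were chosen by morphology, isolated by laser microdissection, and their total RNA was sequenced. The labels give no age, sex or collection time, and do not say whether each library is 1 animal or whether glands were pooled. The spread between libraries may therefore be technical.

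Immediate early genes are transcribed within minutes of a stimulus, from factors already present in the cell, and their transcripts are short-lived. Growth factor and stress kinases act through serum response factor and its ternary complex partners on CArG boxes, and through CREB on cyclic AMP response elements (CRE). The products Fos, Jun, Junb and Atf3 are leucine zipper proteins that pair to form AP-1 and related dimers. In dissected tissue the same genes are known to respond to handling and to delay before fixation or lysis.

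Depth lay between 15141136 and 16709667 reads in the HIP libraries and between 15821742 and 17574682 reads in the WT libraries. Levels are CPM, counts per 1000000 reads scaled between libraries by TMM factors, and differences are HIP minus WT on log2 of CPM plus a pseudocount of 0.121 CPM, with a standard error from limma. Among markers of duct epithelium, the keratin Krt19 stood at 1514 to 2307 CPM in HIP and 1815 to 7325 CPM in WT, and the adhesion protein Epcam at 1435 to 1814 CPM in HIP and 1463 to 2672 CPM in WT. Tff2, a trefoil peptide of mucous glands, stood at only 0.797 to 9.30 CPM in HIP and 0.179 to 1.41 CPM in WT, so that the gland identity rests on morphology, per the labels. The 5 beta cell markers, insulin genes among them, were at 0 in HIP30 and WT26, and summed to 150 CPM in HIP2 and 5050 CPM in HIP3, against 93.0 CPM in WT1 and 11300 CPM in WT4. Since these are bulk samples, fewer cells of a type and less RNA per cell cannot be told apart. Over all 12102 genes tested, limma called 0 genes at a Benjamini-Hochberg adjusted p of 0.05, or 0.00%, while 792 had an unadjusted p under 0.05. Limma-voom also called 0 genes and gave 914 at the unadjusted threshold.

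Promoter windows, from 250 bases before the annotated start to 50 bases after it, were found in the RefSeq table (build GRCr8) for 5 of the 9 measured members, matched by symbol: Nr4a1, Junb, Egr1, Dusp1 and Ier2. The windows of 4 members are shown, because Nr4a1, Junb and Egr1 were lower in each HIP library than in each WT library whereas Ier2 stood at nearly the same level in both groups. All lie on the plus strand. Capitals mark CArG boxes and CRE half-sites (TGACG on either strand).
Nr4a1, chr7:134259888-134260187: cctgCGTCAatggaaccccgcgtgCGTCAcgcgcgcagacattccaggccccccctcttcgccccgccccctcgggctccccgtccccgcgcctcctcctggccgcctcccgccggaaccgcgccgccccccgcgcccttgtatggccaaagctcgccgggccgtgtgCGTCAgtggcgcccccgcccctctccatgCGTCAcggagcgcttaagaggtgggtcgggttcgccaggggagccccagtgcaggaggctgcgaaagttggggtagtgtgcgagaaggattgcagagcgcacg
Junb, chr19:40080876-40081175: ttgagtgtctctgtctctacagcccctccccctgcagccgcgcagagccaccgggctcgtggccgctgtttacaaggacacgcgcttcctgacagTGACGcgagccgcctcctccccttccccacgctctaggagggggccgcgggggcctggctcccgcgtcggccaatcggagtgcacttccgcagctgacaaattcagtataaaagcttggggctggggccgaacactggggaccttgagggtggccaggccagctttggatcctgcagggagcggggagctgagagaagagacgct
Egr1, chr18:26736828-26737127: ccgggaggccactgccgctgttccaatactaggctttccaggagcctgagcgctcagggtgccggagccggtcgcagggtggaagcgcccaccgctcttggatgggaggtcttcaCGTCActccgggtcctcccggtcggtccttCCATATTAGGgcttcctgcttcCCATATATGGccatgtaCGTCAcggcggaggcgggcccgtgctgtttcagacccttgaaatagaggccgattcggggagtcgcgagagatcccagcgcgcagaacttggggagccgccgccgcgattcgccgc
Ier2, chr19:40399123-40399422: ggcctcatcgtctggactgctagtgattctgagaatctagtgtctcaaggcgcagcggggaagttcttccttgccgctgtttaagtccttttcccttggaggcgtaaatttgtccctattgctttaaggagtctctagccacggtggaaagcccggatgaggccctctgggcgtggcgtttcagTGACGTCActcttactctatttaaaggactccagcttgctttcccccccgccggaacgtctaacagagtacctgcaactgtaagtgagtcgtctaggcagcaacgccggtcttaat

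All 5 windows hold at least 1 CRE half-site, a motif found in 22.0% of 27457 promoter windows of the same length. Nr4a1 holds 4 of them, Dusp1 3, Egr1 and Ier2 2 each, and Junb 1. The full CRE, TGACGTCA, contains a half-site on each strand and stands in the windows of Ier2 and Dusp1, as in 1.91% of all windows. Its match lies 66 bases before the start of Ier2 and 124 bases before the start of Dusp1. CArG boxes were found in the Egr1 window only, where a pair begins 105 and 83 bases before the start; 1.64% of all windows hold one. The AP-1 motif TGANTCA, searched on both strands like the others, matched in 0 of the 5 windows and in 7.33% of all windows. These matches describe letters and do not show binding. A link between the motifs and the member differences was not tested.

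**Figure D1:**
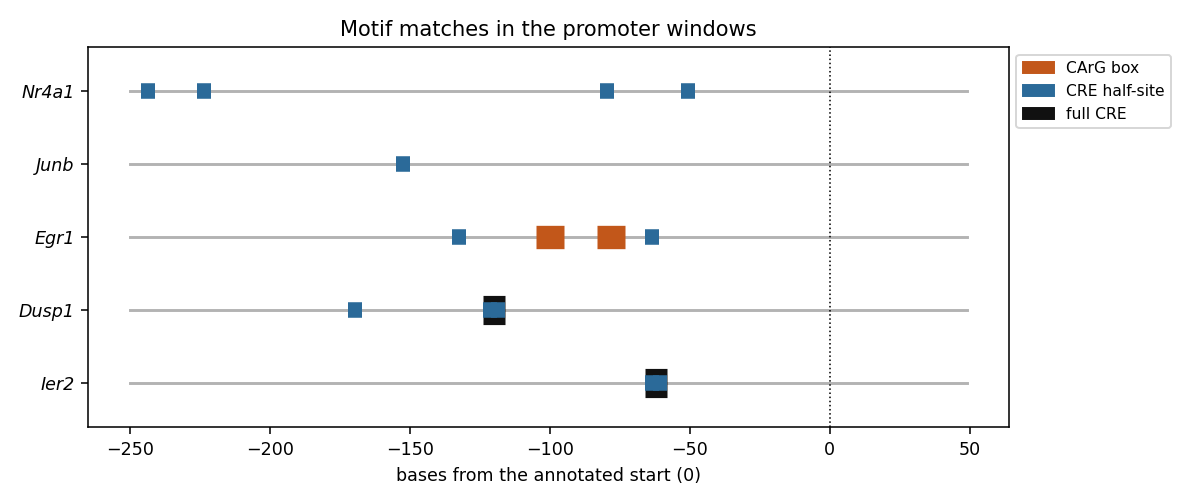
Positions of CArG boxes, CRE half-sites and full CREs in the promoter windows of 5 measured members, in bases from the annotated start. Only Egr1 has CArG boxes, Nr4a1 has 4 half-sites, and Dusp1 and Ier2 have the full CRE.

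Fos, the founding partner of Jun in AP-1, was measured at 19.2 (HIP30), 41.5 (HIP2) and 49.5 CPM (HIP3), and at 118.8 (WT26), 86.8 (WT1) and 80.1 CPM (WT4). HIP30 was the lowest library and WT26 the highest, and the groups did not overlap. The mean was 36.7 ± 15.7 CPM in HIP and 95.2 ± 20.7 CPM in WT (SD, n = 3 each). The log2 difference was -1.46 ± 0.36 (SE). These levels rest on 316 to 808 reads in HIP and 1318 to 1992 reads in WT.

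Atf3, a stress-induced leucine zipper factor of the ATF/CREB family, was measured at 1.22 (HIP30), 11.4 (HIP2) and 12.7 CPM (HIP3), against 100.1 (WT26), 45.8 (WT1) and 23.2 CPM (WT4). All HIP values lay below all WT values, but each group was wide, with WT26 far above WT4. The HIP30 value rests on 20 reads, with an exact 95% Poisson interval of 0.743 to 1.88 CPM that covers counting error only. The mean was 8.44 ± 6.29 CPM in HIP and 56.3 ± 39.5 CPM in WT (SD, n = 3 each), and the log2 difference was -3.03 ± 0.90 (SE). Without HIP30 the Atf3 difference was -1.96, and no other library moved it as far.

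Nr4a1, an orphan nuclear receptor also called Nur77, was measured at 3.34 (HIP30), 10.9 (HIP2) and 5.39 CPM (HIP3), against 12.9 (WT26), 23.5 (WT1) and 23.9 CPM (WT4). HIP2, the highest HIP library, lay just under WT26, the lowest WT library, and their exact 95% Poisson intervals of 9.39 to 12.7 CPM and 11.2 to 14.7 CPM overlap. The mean was 6.55 ± 3.92 CPM in HIP and 20.1 ± 6.24 CPM in WT (SD, n = 3 each), a log2 difference of -1.71 ± 0.49 (SE).

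Junb, a Jun relative that can oppose Jun in AP-1 dimers, was measured at 29.7 (HIP30), 32.4 (HIP2) and 27.9 CPM (HIP3), against 75.1 (WT26), 53.0 (WT1) and 35.2 CPM (WT4). The HIP libraries lay close together and WT4 stood nearest to them. For Junb the exact 95% Poisson intervals of HIP2 (29.7 to 35.3 CPM) and WT4 (32.4 to 38.2 CPM) overlap. The log2 difference was -0.79 ± 0.29 (SE). Egr1, a zinc finger factor induced by growth signals, was measured at 85.3 (HIP30), 113.3 (HIP2) and 89.5 CPM (HIP3), against 134.6 (WT26), 119.6 (WT1) and 189.2 CPM (WT4). The gap between HIP2 and WT1 is narrow, and the Egr1 groups overlapped when libraries were scaled by their totals. The Poisson intervals of Egr1 in HIP2 (108.2 to 118.6 CPM) and WT1 (114.4 to 125.1 CPM) overlap as well. The log2 difference was -0.61 ± 0.22 (SE).

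Jun, the other core subunit of AP-1, had a difference of the opposite sign. It was measured at 381.4 (HIP30), 407 (HIP2) and 329.1 CPM (HIP3), against 184 (WT26), 228.5 (WT1) and 380.4 CPM (WT4). The groups overlapped, since WT4 lay within the range of HIP. The mean was 372.5 ± 39.7 CPM in HIP and 264.3 ± 103 CPM in WT (SD, n = 3 each), a log2 difference of 0.56 ± 0.27 (SE). It was 0.33 without WT26 and 0.86 without WT4.

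The remaining members overlapped between the groups. Dusp1, a phosphatase that switches off MAP kinases, was measured at 13.1 (HIP30), 9.52 (HIP2) and 14.2 CPM (HIP3), against 13.8 (WT26), 14.2 (WT1) and 32.7 CPM (WT4). Only WT4 stood apart, and the log2 difference of -0.61 (standard error 0.40) was -0.21 without WT4. Ier2, a nuclear protein of the early growth response, was measured at 10.5 (HIP30), 14.7 (HIP2) and 14.6 CPM (HIP3), against 9.36 (WT26), 16.1 (WT1) and 14.2 CPM (WT4). Its means were 13.3 ± 2.42 CPM in HIP and 13.2 ± 3.48 CPM in WT (SD, n = 3 each), a log2 difference of 0.02 ± 0.33 (SE). Ier3, a regulator of cell survival under stress, was measured at 38.3 (HIP30), 38.9 (HIP2) and 32.5 CPM (HIP3), against 33.9 (WT26), 29.4 (WT1) and 40.7 CPM (WT4), a log2 difference of 0.08 ± 0.22 (SE). With a library left out the sign turned for Ier2 in 3 cases (over -0.21 to 0.19) and for Ier3 in 1 case (over -0.04 to 0.21).

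**Figure D2:**
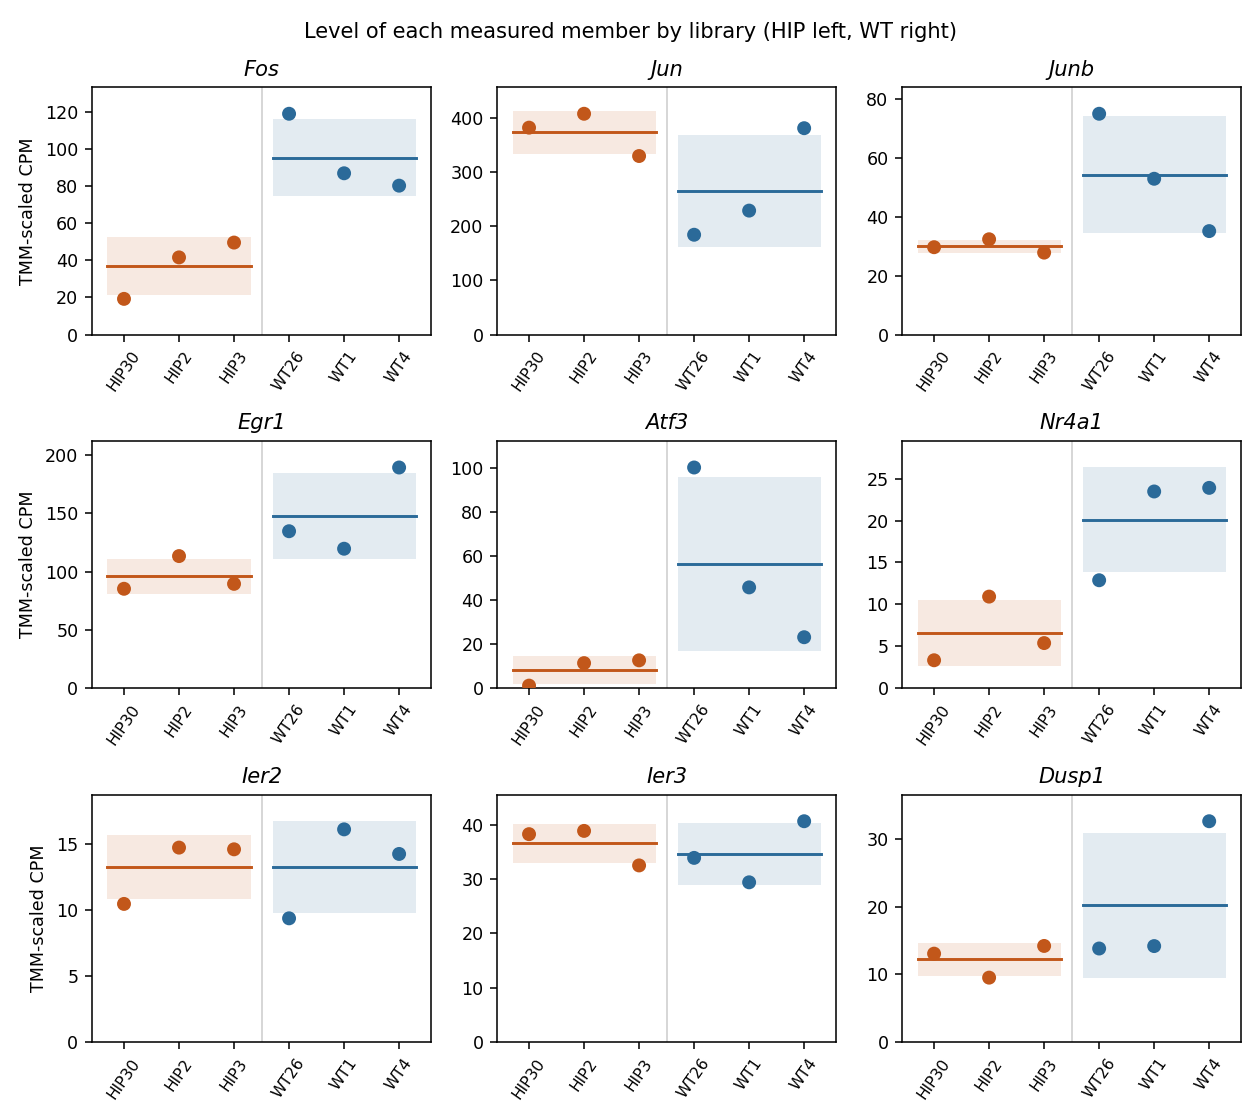
TMM-scaled CPM of the 9 measured members in each library, with HIP libraries left (orange) and WT libraries right (blue). Lines are group means and shaded bands ± 1 SD (n = 3); the groups of Fos, Junb, Egr1, Atf3 and Nr4a1 do not overlap, and WT4 lies within the HIP range for Jun.

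All 9 measured members passed the filter on low reads. Of them, 6 had a negative difference, where 48.9% of all 12102 genes tested did, and the median over the 9 was -0.61, against 0.01 over all genes tested. In 5 members the HIP libraries lay below all WT libraries, which held for 4.27% of all genes tested, and in 0 members they lay above, which held for 5.27%. Scaled by library totals the first count was 4, without Egr1. For Nr4a1, Junb and Egr1 the Poisson intervals of the nearest HIP and WT libraries overlap. Because the list was drawn up with lower members in view, nothing is read from these counts. The 9 members did not form a single block, since differences ran from -3.03 for Atf3 to 0.56 for Jun.

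The titles number 1 library of each group far above the others (30 and 26, against 1 to 4), which the labels do not call a batch. Between HIP30 and WT26 the log2 difference was -6.23 for Atf3, -2.62 for Fos, -1.33 for Junb and 1.05 for Jun. Between HIP2 and HIP3 on one side and WT1 and WT4 on the other it was -1.43 for Atf3, -0.88 for Fos, -0.52 for Junb and 0.31 for Jun. These 4 genes had the larger difference in the pair HIP30 and WT26. The groups of Fos, Junb and Atf3 do not overlap, so their sign could not differ between the series. Fos and Atf3 were also on the list as lower in HIP. The sign of Jun could have turned and did not. Nr4a1 and Egr1 had similar differences in both, -1.91 and -0.66 for HIP30 minus WT26 against -1.61 and -0.58 for the libraries numbered 1 to 4. Dusp1 differed by -0.08 between HIP30 and WT26 and by -0.88 among the others.

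**Figure D3:**
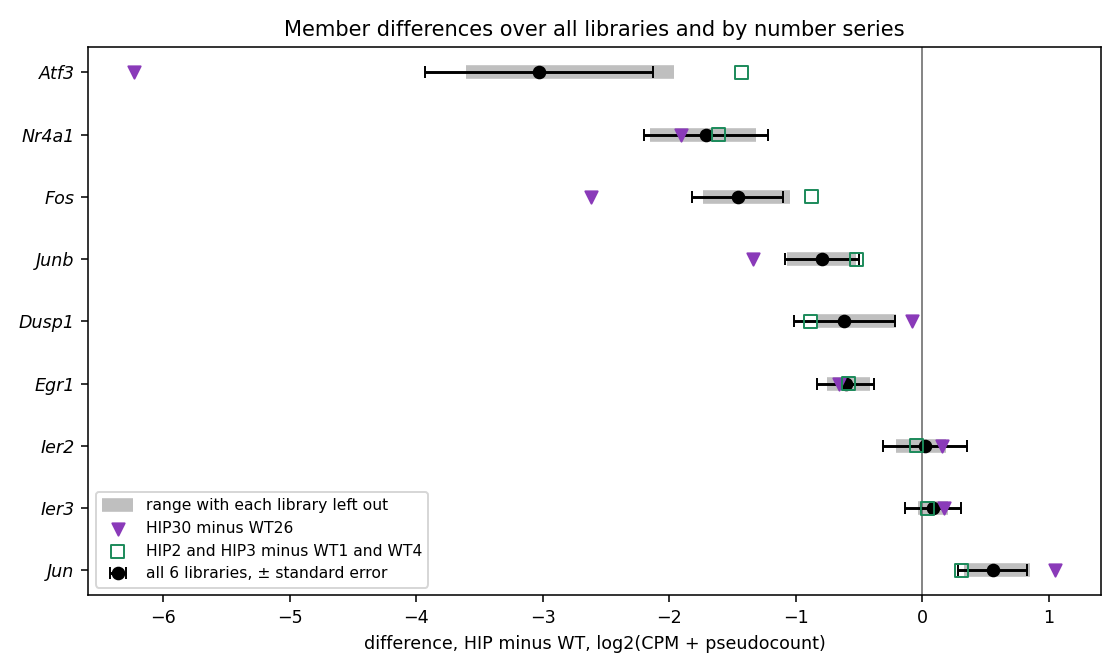
Difference of each member on the log2(CPM + pseudocount) scale, HIP minus WT, with its standard error (black), the range when each library is left out (grey), HIP30 minus WT26 (purple triangle) and HIP2 and HIP3 minus WT1 and WT4 (green square). Atf3 runs from -6.23 to -1.43 between the number series, while Egr1 stays between -0.66 and -0.58.

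Within a group, the order of the libraries differed from member to member. The members were not chosen by this order. It is not independent of the choice, since Fos, Atf3 and Nr4a1 were on the list as lower in HIP. Leaving out HIP30 reduced their differences most. Some ranks lie within counting error, as for Ier2 in HIP2 and HIP3 (14.7 and 14.6 CPM). In HIP, HIP30 was the lowest library for 5 of the 9 members (Fos, Egr1, Atf3, Nr4a1 and Ier2) and the highest for 0, while HIP2 was the highest for 6. In WT, Fos, Junb and Atf3 were highest in WT26 and lowest in WT4. Jun was highest in WT4 and lowest in WT26, and Nr4a1 and Dusp1 had the same extremes as Jun. Among WT libraries, Atf3 spread over 2.11 log2 units, Dusp1 over 1.23, Junb over 1.09 and Jun over 1.05. Egr1 spread over 0.66, Fos over 0.57 and Ier3 over 0.47. Among HIP libraries, Atf3 spread over 3.26 log2 units, Nr4a1 over 1.67 and Fos over 1.36, whereas Junb spread over 0.22, Ier3 over 0.26 and Jun over 0.31.

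**Figure D4:**
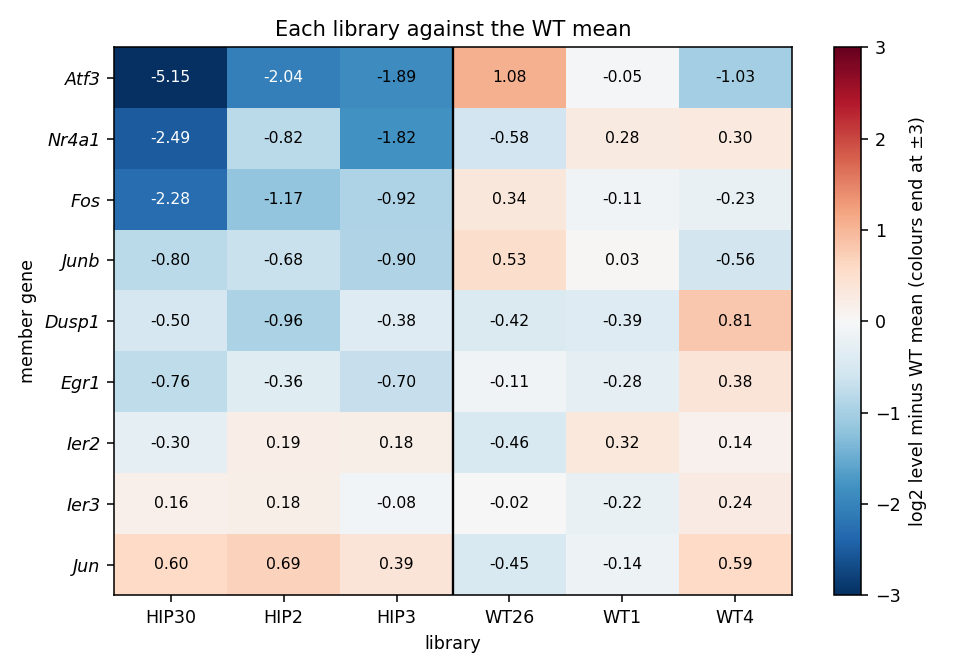
Log2 level of each member in each library minus its WT mean, HIP libraries left and WT libraries right of the black line. Atf3 is 1.08 above the WT mean in WT26 and 1.03 below it in WT4, and Jun is 0.45 below it in WT26 and 0.59 above it in WT4.

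Ratios between AP-1 genes within a library varied accordingly. Reads on Jun outnumbered reads on Junb 12.8 (HIP30), 12.6 (HIP2) and 11.8 times (HIP3), and 2.45 (WT26), 4.31 (WT1) and 10.8 times (WT4). The HIP libraries lay close together in this ratio, and WT4 lay near them while WT26 lay lowest. Reads on Jun outnumbered those on Fos 19.9 (HIP30), 9.80 (HIP2) and 6.65 times (HIP3), and 1.55 (WT26), 2.63 (WT1) and 4.75 times (WT4). Both ratios were higher in each HIP library than in each WT library. Fos was on the list as lower in HIP, and the Junb groups did not overlap either, so this separation partly restates those differences. The values are ratios of reads, not corrected for transcript length, so only their change between libraries can be read.

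Levels of cell type markers differed between the libraries as well. The duct epithelial markers, 7 of 10 listed in the tables, summed to 6880 (HIP30), 6550 (HIP2) and 9830 CPM (HIP3) and to 23500 (WT26), 11300 (WT1) and 7390 CPM (WT4), with none at 0. Most of each sum came from the keratins Krt19, Krt8 and Krt18 and from Epcam, all 4 highest in WT26, where Fos, Junb and Atf3 stood highest too. Of the 7 duct markers 4 had negative and 3 positive differences. The chloride channel Cftr went the other way, at 272.4 (HIP30), 313.1 (HIP2) and 336.7 CPM (HIP3), against 176.9 (WT26), 276.5 (WT1) and 180.9 CPM (WT4), and Tff2 was lowest in WT26. All 7 fibroblast markers had negative differences, with sums of 406 (HIP30), 736 (HIP2) and 1720 CPM (HIP3) and of 1390 (WT26), 1950 (WT1) and 2130 CPM (WT4), and none at 0. Of 6 smooth muscle markers the 5 tested were negative, with sums of 14.8 to 57.2 CPM in HIP and 48.8 to 64.3 CPM in WT, and Cnn1 was at 0 in HIP30, HIP2 and WT4. Of 7 myeloid markers 6 had positive differences, with sums of 506 to 526 CPM in HIP and 437 to 598 CPM in WT, and none was at 0. Endothelial markers, 6 of 7 listed, summed to 140 to 206 CPM in HIP and 132 to 242 CPM in WT, with none at 0. Lymphoid markers, 5 of 6 listed, summed to 2.25 to 4.88 CPM in HIP and 0.921 to 11.2 CPM in WT, and the T cell markers Cd3e, Cd3d and Cd2 were at 0 in WT26. Acinar markers summed to 17.9 to 99.7 CPM in HIP and 21.5 to 64.5 CPM in WT. Mast cell markers summed to 44.3 to 121 CPM in HIP and 99.5 to 142 CPM in WT, nearly all of it Kit, and at least 1 of the defining Fcer1a, Mcpt1 and Cpa3 was at 0 in each library but WT4. The part of these cell types in the member differences was not tested. In HIP30 and WT26 the beta cell markers Ins1, Ins2, Iapp, Slc2a2 and Ucn3 were all at 0. So were the acinar enzymes Prss1, Cpa1, Cel, Ctrb1 and Pnlip. Between this pair the differences of Fos, Atf3, Junb and Jun were larger than among the other libraries. Those of Nr4a1 and Egr1 were similar, and that of Dusp1 was smaller. The pair is 1 library against 1, and a link to these markers was not tested.

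Close relatives of the members were near evenly split in sign. Of 11 tested AP-1 relatives, 5 had a negative and 6 a positive difference, and their median log2 difference was 0.00, or -0.21 without HIP30, 0.07 with library totals and -0.02 with median-of-ratios factors; limma called 0 of them. Jdp2, a repressor that dimerises with AP-1 proteins, stood at 4.64 ± 1.49 CPM in HIP and 6.32 ± 1.44 CPM in WT, with a log2 difference of -0.45 that ran from -0.69 without HIP2 to -0.29 without HIP30 (limma, adjusted p = 0.826). Fosl1, a Fos relative, stood at 1.67 ± 0.63 CPM in HIP and 2.53 ± 0.96 CPM in WT, with a log2 difference of -0.55 that ran from -0.90 without WT26 to -0.35 without HIP3 (limma, adjusted p = 0.849). Of 6 relatives and co-repressors of Egr1 and Nr4a1, 3 were negative and 3 positive, with a median of -0.08 and 0 called. That median was -0.26 without WT4 and above 0 without HIP3 (0.005) and without WT26 (0.04). Nab1, a co-repressor of Egr proteins, differed by -0.27 ± 0.26 (SE; limma, adjusted p = 0.835), and by -0.06 without HIP30 and -0.46 without WT4. Nr4a3, another orphan receptor of the Nr4a family, had a positive difference of 0.55 ± 0.58 (SE; limma, adjusted p = 0.852), which was 0.16 without HIP30 and 0.97 without HIP3.

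Of 9 tested relatives of Ier and Dusp genes 6 were negative and 3 positive, with a median of -0.04 and 0 called. That median ran from -0.33 without HIP2 to 0.14 without HIP3. Dusp16, a phosphatase of stress-activated kinases, was measured at 35.0 (HIP30), 45.3 (HIP2) and 30.4 CPM (HIP3), against 21.5 (WT26), 28.7 (WT1) and 19.2 CPM (WT4). The groups did not overlap, with a log2 difference of 0.67, a standard error of 0.26 and an adjusted p of 0.691 by limma. Dusp8, another phosphatase of these kinases, stood at 3.40 ± 1.34 CPM in HIP and 7.33 ± 3.09 CPM in WT, and it missed the threshold too (limma, adjusted p = 0.691).

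Of 29 tested genes that are rapidly induced along with the members, 21 were negative and 8 positive, with a median of -0.31, against 0.01 over all genes tested; limma called 0. The median was -0.17 without WT26. Spry4, a feedback inhibitor of receptor kinase signalling, was measured at 11.4 (HIP30), 20.2 (HIP2) and 28.4 CPM (HIP3), against 35.2 (WT26), 47.3 (WT1) and 33.0 CPM (WT4). All HIP values were below all WT values, with a log2 difference of -1.02 and a standard error of 0.36 (limma, adjusted p = 0.691). Without HIP30 the Spry4 difference was -0.66. Ctgf, a matricellular protein and YAP target, was measured at 2.37 (HIP30), 9.04 (HIP2) and 27.1 CPM (HIP3), against 27.5 (WT26), 34.7 (WT1) and 42.7 CPM (WT4). HIP3 nearly reached WT26, and the log2 difference was -2.02 ± 0.76 (SE; limma, adjusted p = 0.691), and -1.12 without HIP30. At an unadjusted p under 0.05 stood 5 genes of this list, named after their values were seen, which are Spry4, Ctgf, Cyr61, Klf4 and Klf6, all with negative differences. Unadjusted p-values under 0.05 with a negative difference occurred in 394 genes, or 3.26% of all tested, and with a positive difference in 398, or 3.29%. The list was chosen with earlier results of these data known, so nothing is read from its counts or its median.

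Of 17 tested kinases and factors of the upstream machinery 9 were negative and 8 positive, with a median of -0.01 and 0 called by limma. The stress-activated kinase Mapk8 had a log2 difference of 0.30 and a standard error of 0.20 (limma, adjusted p = 0.736). Without HIP3 the Mapk8 difference was 0.17. These are transcript levels and carry no information on kinase activity.

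Of 11 tested genes of the integrated stress response, the pathway that induces Atf3 through Atf4, 5 were negative and 6 positive, with a median of 0.16 and 0 called; the median was 0.03 without HIP30, 0.06 without WT1, -0.01 without WT4 and -0.03 with no filter on low reads. Atf4 itself stood at 240.4 ± 33.9 CPM in HIP and 266.6 ± 90.7 CPM in WT, with a log2 difference of -0.11 that was 0.15 without WT26 (limma, adjusted p = 0.947). Eif2ak4, the amino acid sensing kinase Gcn2, was measured at 229.4 (HIP30), 196 (HIP2) and 160.6 CPM (HIP3), against 122.6 (WT26), 124 (WT1) and 131.6 CPM (WT4). Sesn2, a stress-induced inhibitor of growth signalling, was measured at 39.8 (HIP30), 38.8 (HIP2) and 32.1 CPM (HIP3), against 18.9 (WT26), 18.4 (WT1) and 29.4 CPM (WT4). For both genes all HIP values were above all WT values, opposite in sign to Atf3, with log2 differences of 0.62 and 0.75 and standard errors of 0.18 and 0.26, and both missed the threshold (limma, adjusted p = 0.691 each).

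Of 9 tested heat shock genes 8 were negative and 1 positive, with a median of -0.24, or -0.09 without HIP30, and 0 called. Over all genes tested 48.9% were negative and the median was 0.01. The positive heat shock gene, Hsph1, a chaperone of the Hsp110 family, stood at 174.8 ± 21.0 CPM in HIP and 125.3 ± 3.39 CPM in WT (limma, adjusted p = 0.691). Hspd1, the mitochondrial chaperonin, stood at 252.4 ± 74.3 CPM in HIP and 325.8 ± 58.3 CPM in WT, with a log2 difference of -0.39 that ran from -0.63 without HIP3 to -0.23 without HIP30 (limma, adjusted p = 0.723). Of 12 genes known as AP-1 targets 7 were tested, and 6 of these were negative, with a median of -0.43, or -0.20 without HIP30 and -0.68 without HIP3, and 0 called. The heat shock and AP-1 target lists were chosen with earlier results of these data known, so nothing is read from their signs. Hmox1, heme oxygenase, was measured at 2.37 (HIP30), 1.47 (HIP2) and 3.31 CPM (HIP3), against 6.86 (WT26), 3.32 (WT1) and 6.87 CPM (WT4). HIP3 and WT1 were nearly level, and the log2 difference was -1.21 ± 0.52 (SE; limma, adjusted p = 0.691). Plaur, the urokinase receptor, was measured at 39.8 (HIP30), 33.6 (HIP2) and 26.8 CPM (HIP3), against 108.9 (WT26), 43.6 (WT1) and 42.0 CPM (WT4). WT26 stood far above the other libraries for Plaur, as it did for Atf3, and the log2 difference of -0.82 (limma, adjusted p = 0.691) was -0.37 without WT26.

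**Figure D5:**
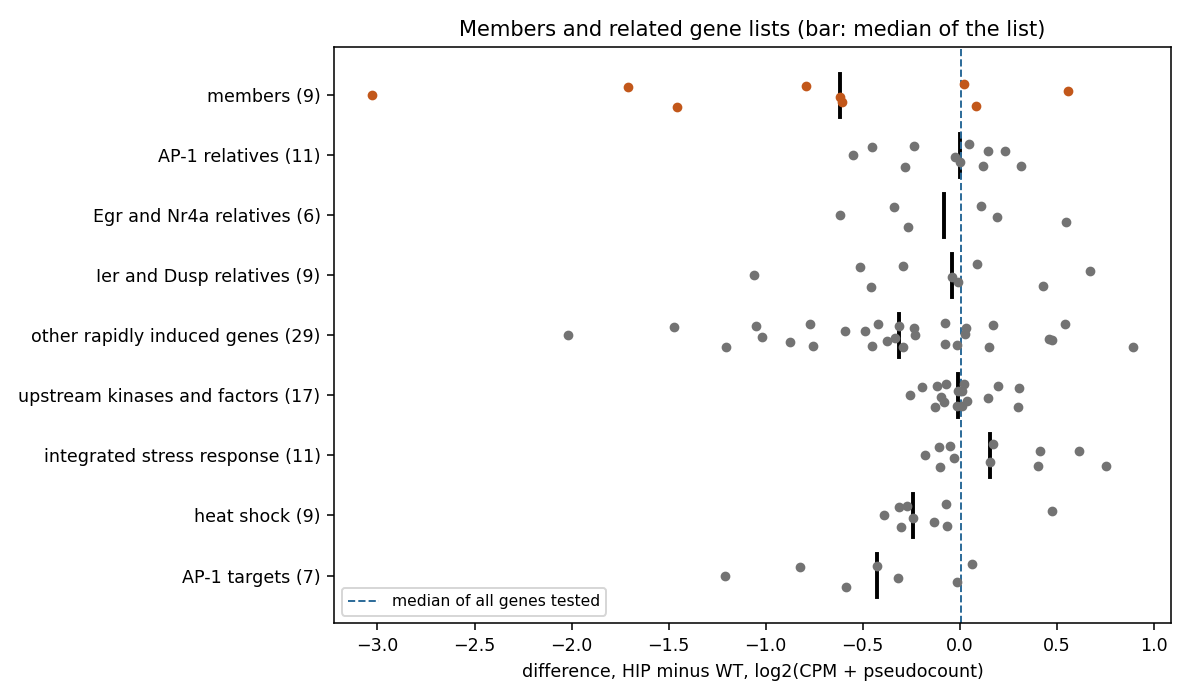
Differences on the log2(CPM + pseudocount) scale, HIP minus WT, for the 9 members (orange) and for the tested genes of 8 related lists (grey), with black bars at the median of each list and a dashed line at the median of all genes tested. The median is -0.61 for the members, -0.31 for other rapidly induced genes and 0.00 for AP-1 relatives.

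Genes outside the list were also compared with the members by profile. The median of the 9 centred log2 profiles was compared with 9988 other genes at a mean of at least 5 CPM, by root mean square distance over the 6 libraries. The nearest 5 were Rbm48, Eya2, a transcriptional co-activator, Vim, the intermediate filament of mesenchymal cells, Gclc, the catalytic subunit of glutamate-cysteine ligase, and Fzd1, a Wnt receptor, at distances of 0.08 to 0.13 log2 units. Vim was measured at 43.3 (HIP30), 53.4 (HIP2) and 58.2 CPM (HIP3), against 67.5 (WT26), 75.1 (WT1) and 95.6 CPM (WT4). The list was drawn up with lower members in view, and its median profile is lower in HIP. Genes nearest to that profile are therefore lower in HIP by construction, and nothing is read from their direction. By the same distance Egr1 lay nearest to the median profile among the members, at 0.16, and Atf3 farthest, at 1.72. The median profile is therefore not the profile of Fos or Atf3, which lay at 0.62 and 1.72.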

How the data were processed

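RNA of laser-captured pancreatic duct glands was extracted with a kit for very small samples and made into libraries with a very low input kit, per the labels' protocols. STAR, HTSeq, edgeR and limma and the build rn5 are named in the submitters' processing notes without versions or order. Strand use and annotation are not stated there. The authors deposited 1 table per library with log2 values for 15679 rows. The deposited log2 values are CPM with a prior of 0.25 reads, as each column sums to 1000000 once the shared lowest value of -6.04 is taken off. Whole reads came back for 100% of values within 0.1 reads. The 4 rows of 2 repeated symbols were left out.

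Reads were scaled with TMM factors (trims of 30% and 5%; factors 0.933 to 1.09). The filter kept 12102 genes, those with 15 reads or more in all and with 0.61 CPM or more (10 reads in a library of median depth) in 3 libraries. Limma 3.58.1 in R 4.3.3 was run, two-sided and with its mean-variance trend, on log2(CPM + 0.121), a pseudocount worth 2 reads, with Benjamini-Hochberg adjustment over all genes; this scale understates changes of low genes. Members had no test. Steps were tested on simulated data. The members and lists were chosen with earlier results of these data known. Genes named are the members, the 2 of each related list with the lowest unadjusted p, the 5 with the nearest profile and listed markers; other names follow from a count or a role, after values were seen. A few items are not reported here. Reads shared by paralogs or overlapping genes could not be separated. Intervals cover counting error only. Figures were drawn with matplotlib 3.10.9.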

Additional observations from a re-analysis of the deposited data

How the results depend on the processing

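No paired analysis was possible because the groups share no replicate numbers. Other scalings, pseudocounts, filters, limma-voom, a term for the number series and leaving out each library called 0 genes in each case, and 0 genes of the related lists. The unadjusted count of 792 became 264 without HIP30, 227 without HIP2, 1781 without HIP3, 326 without WT26, 314 without WT1 and 1557 without WT4, where the smallest adjusted p of limma was 0.0874 without HIP3 and 0.292 without WT4. The median member difference of -0.61 ran from -0.79 to -0.41 with libraries left out, the number of negative members from 6 to 7, and the number without overlap from 5 to 6 (an alternative chosen after seeing the data). Apart from small changes in scaling, leaving out a library cannot make separated groups overlap, so the last count could hardly fall. With library totals it was 4. Fos, Jun, Junb, Egr1, Atf3, Nr4a1 and Dusp1 kept their sign in all 11 alternatives run for members. For Fos, Junb, Egr1, Atf3 and Nr4a1, whose groups do not overlap, leaving out a library could hardly turn the sign. The term for the number series could not change a difference, because both groups hold the same mix of high and low numbers. Fos, Atf3 and Nr4a1 were on the list for this sign. Fos ran from -1.74 to -1.04, Atf3 from -3.60 to -1.96 and Nr4a1 from -2.15 to -1.31. List medians near 0 turned in sign: the upstream list (-0.01) was 0.07 and the Ier and Dusp relatives (-0.04) 0.03 with library totals, and the upstream list ran from -0.09 to 0.02 with libraries left out; the AP-1, Egr and Nr4a, and integrated stress lists turned as well, as given with their medians. Library totals shifted the median of all genes by 0.07 on the log2 scale. The edgeR and DESeq2 tests planned for recovered reads were not run, so limma-voom is the only test given on the recovered reads themselves. Depth limits Atf3 in HIP30 (20 reads) and Nr4a1 in HIP30 (55 reads) most.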
